A study of Mus musculus with 14 samples.

Results

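The glutathione, thioredoxin and antioxidant genes were examined in 14 single Tomato-positive cells from adult mouse bone. The set was defined by gene symbol and by no measured value: it holds the glutathione peroxidases, peroxiredoxins, thioredoxins and thioredoxin domain proteins, glutathione transferases, superoxide dismutases, catalase, haem oxygenases, quinone reductases, glutaredoxins, the enzymes of glutathione synthesis and reduction, sulfiredoxin and ferritin. In total 56 of the 9558 gene rows of the table matched. The ferritin heavy chain gene Fth1, also named by the rule, was not analysed here. All 14 cells came from Prrx1-CreERT;Tomato mice of the C57BL/6 strain given tamoxifen at 2 mg per 30 g of body weight, injected daily on 3 days. In these mice the Prrx1 promoter, active in limb mesenchyme, drives a tamoxifen-dependent Cre recombinase that switches on the red reporter, which then marks the cell and its descendants for good. The tibia, radius and ulna were freed of marrow and digested with collagenase, red cells were sorted, and single cells were picked under the microscope. All cells formed 1 group and no animal is named, so the cells count as 1 sample and no test between samples was possible.

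Levels are quantile-normalized log2(FPKM + 1) values, where FPKM counts fragments scaled by the length of the transcript and by the mapped fragments of the cell. They rank a gene within its cell and cannot show whether cells differed in how much RNA they held, and the depth is unknown. A gene is called detected in a cell where its value is 1 or more, which is an FPKM of at least 1. Between 7304 and 8027 rows were above 0 per cell. The driver gene Prrx1 had a median of 3.53 (range 0.52 to 7.31) and was detected in 11 cells, and all 22 fibroblast matrix genes fixed as markers were detected in at least 7 cells. Blood cell transcripts were present too. Of 33 pan-haematopoietic, neutrophil and macrophage markers fixed, 25 had a row, and their mean lay between 2.24 in cell 4 and 8.70 in cell 14, with 7.60 in cell 11, 6.53 in cell 6, 6.10 in cell 8 and at most 4.57 in the others. The leukocyte antigen gene Ptprc stood at 8.31 in cell 11, while cells 14 and 8 held 6.51 and 3.27 and the others at most 1.21. By the pattern of rows at 0 the cells fell into a set of 9 and a set of 5 (cells 3, 4, 11, 12 and 13), which the labels do not explain.

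Cells produce superoxide and hydrogen peroxide in respiration, oxidative protein folding and immune reactions. Superoxide dismutases turn superoxide into peroxide, which catalase, the glutathione peroxidases and the peroxiredoxins then remove. The peroxidases draw electrons from glutathione or thioredoxin, which are kept reduced at the expense of NADPH. Ferritin stores iron in a form that cannot react with peroxide, and the transcription factor Nrf2, encoded by Nfe2l2, binds antioxidant response elements in many of these genes and induces them when its inhibitor Keap1 is inactivated.

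Antioxidant genes were widely detected. Of the 56 genes, 44 (78.6%) were detected in at least 7 cells, where 51.7% of all rows were. In all 14 cells 29 genes (51.8%) were detected, against 15.8% of all rows, and 7 genes (12.5%) were detected in at most 4 cells, against 34.9% of all rows. The mean over the 56 genes exceeded the mean over all rows in every cell, by a median of 2.40 log2 units (SD 0.37 over 14 cells, range 1.73 in cell 1 to 2.91 in cell 12). Among rows detected in at least 7 cells the median difference was 1.98. The rows are a selection by a rule not given in the sources used here, and both comparisons hold for these rows only. Between 41 genes in cell 6 and 47 in cells 7 and 12 were detected per cell, a narrow range, while the number at a level of 8 or more ran from 6 in cell 6 to 16 in cell 12.

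**Figure D1:**
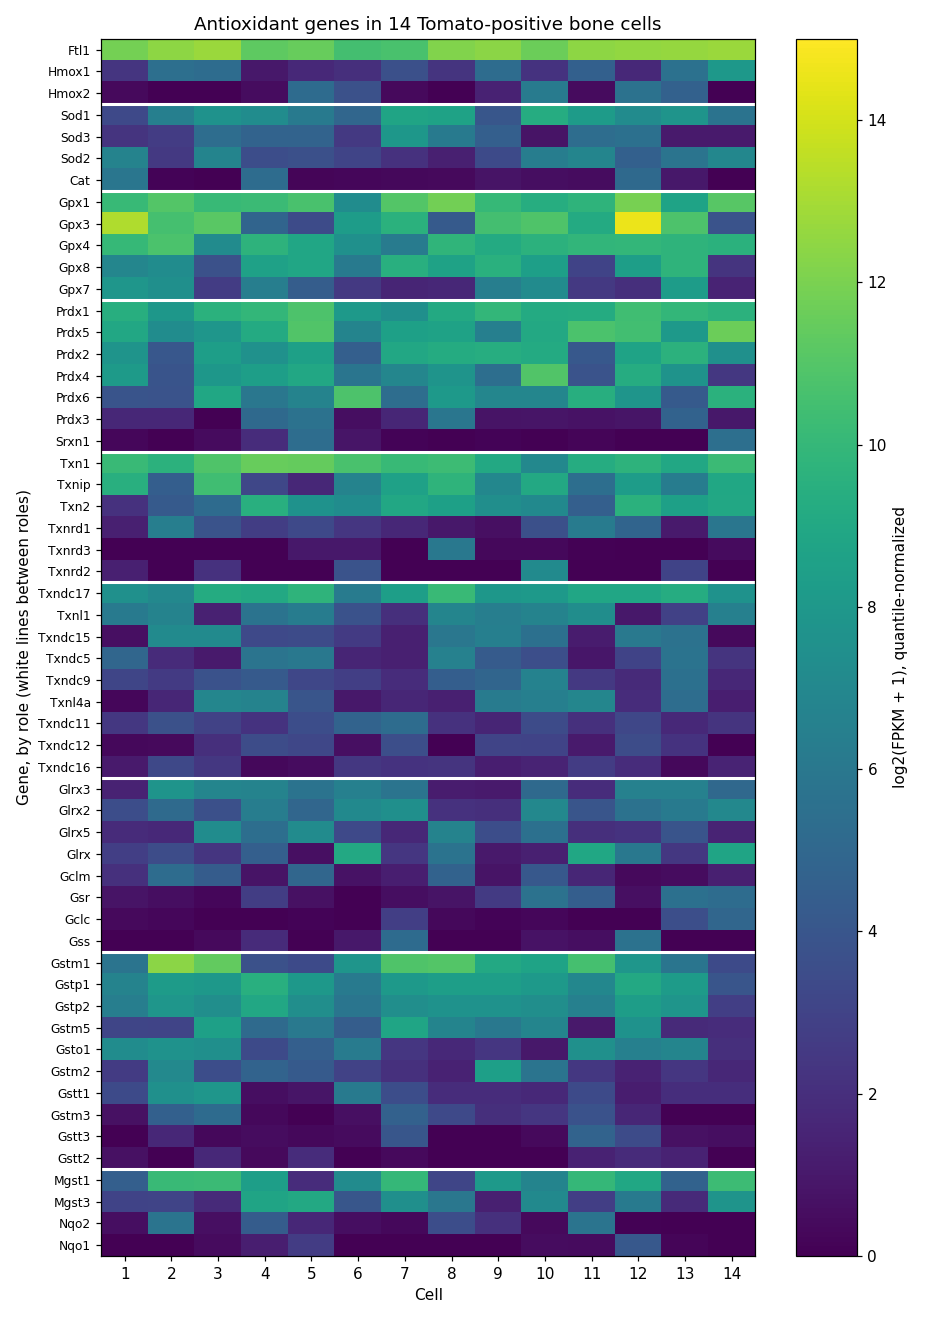
Levels of the 56 antioxidant genes (rows, grouped by role and ordered by median within a role) in the 14 cells (columns); colour is quantile-normalized log2(FPKM + 1) from 0 to 15. Ftl1, Gpx1, Gpx4, Txn1 and Prdx1 are bright in every cell, whereas Gpx3, Gstm1, Glrx and Mgst1 change from cell to cell.

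Taken back to the linear scale, the genes made up a median of 2.53% of the summed normalized FPKM of a cell. The share ran from 1.24% in cell 6 to 6.95% in cell 12. After quantile normalization the cells hold nearly the same set of values, with means over all rows of 2.3687 to 2.3729. This and the following shares therefore reflect ranks, not measured FPKM. Ftl1 gave between 12.1% (cell 7) and 39.9% (cell 13) of the antioxidant FPKM, with a median of 22.8%. Gpx3 gave 54.7% in cell 12 and 47.1% in cell 1, but 0.0603% in cell 5, with a median of 6.36%, below the 7.85% of Gpx1. The gene with the highest level of the set was Ftl1 in 9 cells, Gpx3 in cells 1 and 12, Gpx1 in cell 7, Prdx6 in cell 6 and Txn1 in cell 4.

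**Figure D2:**
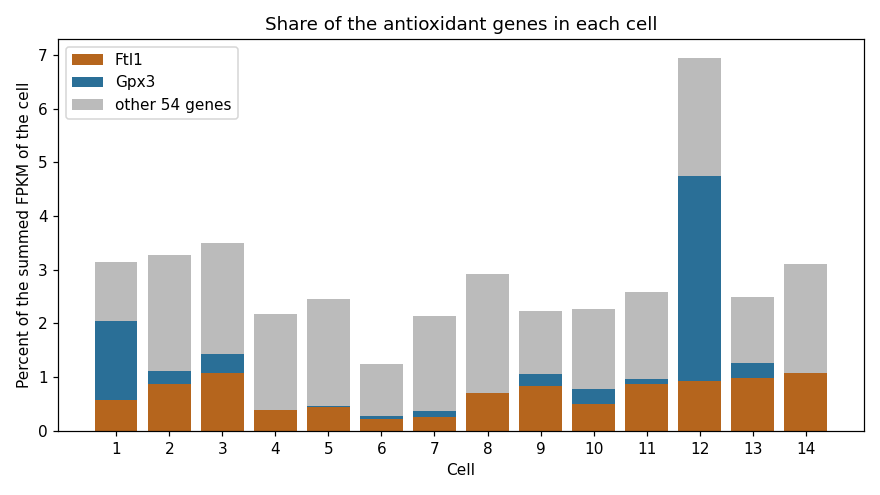
Share of the antioxidant genes in the summed FPKM of each cell (vertical axis, percent), divided into Ftl1, Gpx3 and the remaining genes. Each bar is 1 cell. The FPKM are quantile-normalized values taken back to the linear scale, so the shares reflect ranks. Cell 12 stands at 6.95%, mostly Gpx3, and cell 6 at 1.24%.

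Ftl1 encodes the light chain of ferritin, the subunit that promotes iron core formation in the ferritin shell. The gene (ENSMUSG00000050708) spans bases 45457944 to 45459884 of chromosome 7, minus strand, in the GENCODE M21 annotation of GRCm38. It had the highest median of the set at 12.26 (range 10.53 in cell 6 to 12.77 in cells 3 and 14) and an SD of 0.75, the lowest of the set. Ftl1 has near-identical processed copies in the mouse genome, with a division of reads between them not given in the sources used here. Haem oxygenase 1, the inducible enzyme that releases iron from haem, had a median of 2.98 and passed the detection level in 13 cells. Hmox1 was highest in cell 14 at 7.99, followed by 5.59 in cell 13 and 5.50 in cell 2. The constitutive enzyme gene Hmox2 was detected in 6 cells, with 6.25 in cell 10, 5.67 in cell 12 and 5.22 in cell 5. In the same 3 cells Hmox1 was at 2.19, 1.73 and 1.72. Cell 13, however, held both genes, with Hmox2 at 4.68 and Hmox1 at 5.59. Across the 14 cells, which all share 1 table and its normalization, Hmox1 and Ftl1 had a Spearman rho of 0.674. That of Hmox1 and Hmox2 was -0.505, with Hmox2 at 0 in 4 cells and detected in fewer than the 7 cells used as a filter below.

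Of the superoxide dismutases, cytosolic Sod1 led in 11 cells. Sod1 had a median of 7.26 (range 3.33 in cell 1 to 9.29 in cell 10), and the mitochondrial Sod2 had one of 4.14 (1.29 in cell 8 to 6.92 in cell 14). Within a cell Sod1 exceeded Sod2 by a median of 2.24 log2 units (SD 2.77) and was higher in 12 cells. Cells 1 and 14 had the reverse order, with Sod1 at 3.33 and Sod2 at 6.72 in cell 1, and Sod1 at 5.70 and Sod2 at 6.92 in cell 14. Secreted Sod3, which acts in the extracellular matrix, had a median of 4.63, was detected in 13 cells and peaked in cell 7 at 7.92. Catalase, the peroxisomal enzyme that splits hydrogen peroxide, was detected in 3 cells. Cells 1, 4 and 12 held Cat at 5.91, 5.31 and 5.13, and no other cell exceeded 0.94.

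All 5 glutathione peroxidases with a row were detected in all 14 cells, where 15.8% of all rows were. No other role had all its genes detected in every cell. Gpx1, the abundant cytosolic selenoenzyme, had a median of 10.17 (range 7.28 in cell 6 to 11.92 in cell 12). Gpx4, the selenoenzyme that reduces lipid hydroperoxides in membranes, had one of 9.64 (6.26 in cell 7 to 10.73 in cell 2). Gpx3, the secreted selenoenzyme known from blood plasma, had one of 10.05 and the largest SD of the set, 3.55.

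The levels of Gpx3 left a gap between 4 cells and 10 others. Cells 5, 14, 8 and 4 held 3.40, 3.86, 4.23 and 4.83. In the other 10 cells it was between 8.30 in cell 6 and 14.58 in cell 12, with 13.22 in cell 1 as the next. After normalization 14.58 is the value of the top row in every cell, and Gpx3 was that row in cell 12. The blood cell mean was 8.70 and 6.10 in cells 14 and 8, and 2.39 and 2.24 in cells 5 and 4. Cells 11 and 6, with blood cell means of 7.60 and 6.53, held Gpx3 at 9.17 and 8.30. The part of blood cell RNA in this gap was not tested. Gpx3 and Gpx1 differed by a median of 0.04 log2 units within a cell (SD 3.90), with Gpx3 higher in 7 cells, so neither led over the cells as a whole. The difference ran from -7.57 in cell 8 to 3.10 in cell 1. Among the 3 rows most like Gpx3 over the 14 cells were Klf4 (rho 0.802) and Cdc7 (0.785). They come from the top of 4939 rows, a number at which high values arise in a sample of 14 cells. Gpx3 (ENSMUSG00000018339) lies on chromosome 11 from 54902453 to 54910377.

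Gpx8, a transmembrane peroxidase of the endoplasmic reticulum, had a median of 8.45 and was at 6 or more in 11 cells. The remaining cells 3, 11 and 14 held 3.73, 3.01 and 2.24. Gpx7, its soluble relative, had a median of 3.55 and was between 6.40 and 8.30 in cells 1, 2, 4, 9, 10 and 13 and between 1.52 and 4.45 in the other 8. Gpx8 exceeded Gpx7 in 12 cells, by a median of 1.81. Neither Gpx7 nor Gpx8 uses selenocysteine.

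**Figure D3:**
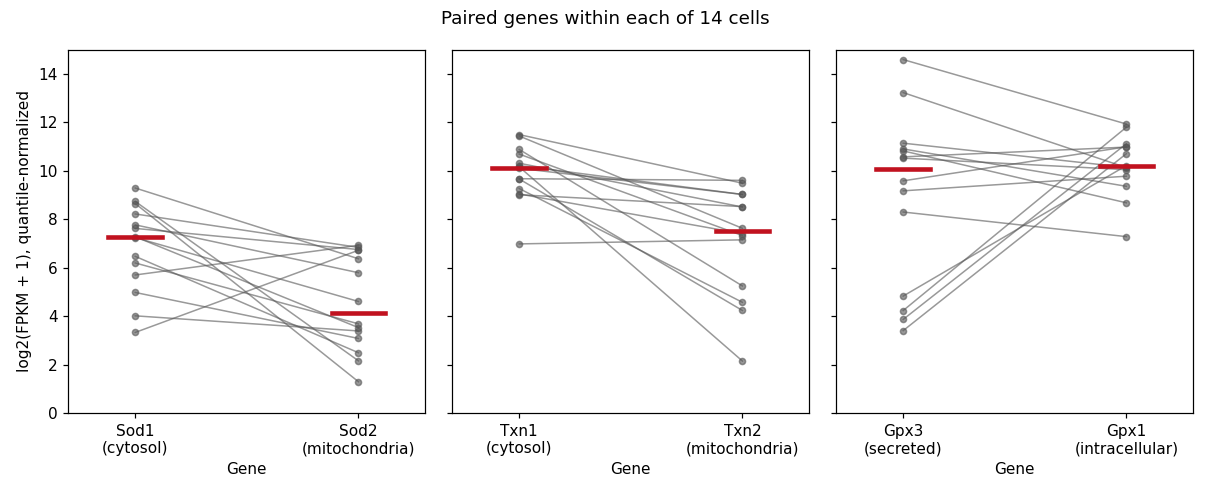
Levels of 3 gene pairs within each of the 14 cells (vertical axis, quantile-normalized log2(FPKM + 1)); grey lines join the 2 genes of a cell and red bars mark the medians over cells. Sod1 lies above Sod2 in 12 cells and Txn1 above Txn2 in 13, while Gpx3 lies above Gpx1 in 7.

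Peroxiredoxins, which reduce peroxides with a reactive cysteine, were also widely detected. The role has 7 genes with sulfiredoxin, of which 6 reached detection in at least 7 cells and 5 in every cell. Over all rows the shares were 51.7% and 15.8%. The cytosolic thiol peroxidase gene Prdx1 had a median of 9.48 (range 7.45 in cell 7 to 10.81 in cell 5) and the lowest SD of the family, 0.94. Prdx5, found in mitochondria, peroxisomes and cytosol, had a median of 8.82 and was highest in cell 14 at 11.60, followed by 10.91 in cell 5 and 10.74 in cell 11. Prdx2 had a median of 8.46 and was between 7.53 and 9.64 in 11 cells, whereas cells 2, 11 and 6 held 4.07, 4.12 and 4.54. Prdx4, the peroxiredoxin of the endoplasmic reticulum, had a median of 7.74, with 10.92 in cell 10 and 2.41 in cell 14 at its ends. Prdx6, which also has phospholipase activity, had a median of 6.87 and its 3 highest levels in cells 6, 14 and 11, with 10.78, 9.59 and 9.39. The mitochondrial Prdx3 had a median of 1.28, was detected in 7 cells and exceeded 4 only in cells 4, 5, 8 and 13. Srxn1, the sulfiredoxin that repairs over-oxidized peroxiredoxins, was detected only in cells 14, 5 and 4, with 5.48, 5.34 and 1.90. Which peroxiredoxin led differed between cells: Prdx1 in 6, Prdx5 in 4, Prdx2 in 2, and Prdx4 and Prdx6 in 1 each.

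By their medians, thioredoxin itself was high and its reductases low. Txn1, cytosolic thioredoxin, had a median of 10.13 and was above 9 in 13 cells, with 6.98 in cell 10. Its mitochondrial counterpart Txn2 had a median of 7.51 and was lower than Txn1 in 13 cells, by a median of 1.91 log2 units. Txnrd1, the cytosolic selenoenzyme that reduces thioredoxin, had a median of 3.02 and was detected in 12 cells, and Txn1 exceeded it in all 14 cells by a median of 8.02 log2 units. The mitochondrial reductase gene Txnrd2 was detected in 5 cells, at most 7.17 in cell 10, and Txnrd3 in cell 8 alone at 6.02. In cell 10 Txnrd2 thus lay above Txn1, at 6.98, and Txn2, at 7.15. Levels here are per kilobase of transcript although the kit reads 3' ends, which understates the longer genes: the longest annotated Txnrd1 transcript has 3622 bases and that of Txn1 has 1051. Txnip, the arrestin-like inhibitor of thioredoxin that responds to glucose, ranged from 1.68 in cell 5 and 3.22 in cell 4 to 10.43 in cell 3, with a median of 7.62. Cells 4 and 5 had the highest Txn1, at 11.49 and 11.43. Cell 10 was the only cell with Txnip (9.03) above Txn1. Over all 14 cells Txn1 and Txnip had a rho of -0.0549.

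Proteins with a thioredoxin domain were detected in at least 7 cells in all 9 cases, against 51.7% of all rows. Only Txndc17 was high throughout. Txndc17, a cytosolic disulfide reductase, had a median of 8.65 (range 6.24 to 10.17) and led the role in 13 cells. Txnl1 followed at 6.24, Txndc15 at 4.48 and Txndc5, a protein disulfide isomerase, at 3.32. Txnl4a is a spliceosome component with a thioredoxin fold, matched by its symbol only. It was at 5 or more in 6 cells and at most 3.97 in the other 8. Txndc12, of the endoplasmic reticulum, was detected in 9 cells and did not exceed 3.61.

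Of the 3 genes of glutathione synthesis, 1 was detected in at least 7 cells, where 51.7% of all rows were. Gclc, the catalytic subunit of glutamate-cysteine ligase, was detected only in cells 14, 13 and 7, with 4.93, 3.61 and 2.79. Its regulatory subunit gene Gclm had a median of 1.48, was detected in 9 cells and peaked in cell 2 at 5.32. Gss, the synthetase of the second step, was detected in 3 cells, with 5.65 in cell 12, 5.25 in cell 7 and 1.85 in cell 4. Cell 7 was the only cell in which all 3 synthesis genes were detected. Gsr, which reduces oxidized glutathione, was detected in 6 cells and was at 4 or more in cells 10, 11, 13 and 14. With depth unknown, a value near 0 does not show that a gene is unexpressed. By the sets drawn from rows at 0, Gss was at 0 in 6 cells of the set of 9 and 1 of the set of 5. Gclc was at 0 in 1 and 4. The sets were made from such zeros, so a split by set is in part built in. Its share over all rows was not computed.

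The 4 glutaredoxins, which use glutathione to reduce disulfides or to carry iron-sulfur clusters, led the role in turn. Glrx3 and Glrx2 had medians of 5.75 and 5.43, Glrx5 of 3.45, each detected in all 14 cells. Glrx, the cytosolic enzyme, had a median of 3.14, was detected in 13 cells and had an SD of 2.99, the third largest among the genes detected in at least 7 cells. Cells 6, 11 and 14 held 9.03, 8.94 and 8.78, above the 0.59 to 5.99 of the remaining 11. These 3 were also the cells with the highest blood cell mean. The rows most like Glrx over the 14 cells were Il1r2 (rho 0.842), Nsun6 (0.841) and Flot1 (0.833). Il1r2 encodes a decoy receptor for interleukin 1 known from neutrophils and other leukocytes. All 3 rows come from the top of 4939, and a source of Glrx in blood cells was not tested.

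Glutathione transferases, which couple glutathione to electrophiles, included both steady and variable genes. Of 10 with a row, 8 reached detection in at least 7 cells and 5 in every cell, against 51.7% and 15.8% of all rows. Gstm1 led in 8 cells. Its median was 8.29, with the highest levels in cells 2, 3 and 8 (12.39, 11.38 and 10.99) and the lowest in cells 14, 5 and 4 (3.38, 3.38 and 3.72). Gstp1 had a median of 8.14 and was between 6.12 and 9.49 in 13 cells, with 3.98 in cell 14. Gstp2 tracked Gstp1 with a rho of 0.930 and a difference of 0.30 to 1.23 log2 units, and Gstm3 tracked Gstm1 with 0.929. These are closely related copies of 1 gene cluster each, between which reads can be divided, so the pairs do not count as independent genes. Gstm5 ranged from 1.003 in cell 11 to 8.82 in cell 7, and Gstm2 was highest in cell 9 at 8.49. Gsto1 was at 6 or more in 7 cells and below 5 in the other 7. The theta class genes Gstt2 and Gstt3 were detected in 5 and 4 cells, and Gstt1 in 12, with 7.87 in cell 3. The 6 cells with Gstt2 at 0 were all in the set of 9 drawn from rows at 0, a split that is in part built in. Other antioxidant genes did not split so: Txnrd2 was at 0 in 6 cells of the set of 9 and 3 of the set of 5. The genes most like Gstm1 were Gstm3 itself, Sh2b3 (0.912) and Erdr1 (0.864), also from the top of 4939 rows.

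Among the membrane-bound and quinone-reducing enzymes, Mgst1 led in 10 cells. Mgst1, the microsomal transferase of endoplasmic reticulum and outer mitochondrial membrane, was between 8.13 and 10.28 in 8 cells, at 7.21 and 6.78 in cells 6 and 10, and at or below 4.71 in cells 1, 5, 8 and 13. Mgst3 was highest in cells 5 and 4, at 9.04 and 8.75. Nqo1, a widely used target gene of Nrf2, was detected in 3 cells, with 4.15 in cell 12, 2.68 in cell 5 and 1.24 in cell 4. It was listed at 0 in 7 cells, all in the set of 9 that was itself drawn from rows at 0. Nqo2 was detected in 6 cells and did not exceed 5.80.

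By place in the cell, 12 cytosolic genes were set against 6 mitochondrial genes. The cytosolic mean exceeded the mitochondrial mean in 12 of 14 cells, by a median of 1.65 log2 units (SD 0.999, range -0.17 in cell 10 to 2.97 in cell 2). Cells 10 and 13 had the reverse order. The mean over the 10 genes of the secretory pathway or outside the cell was lowest in cells 14, 11 and 6, with 1.75, 3.17 and 3.72, and lay between 4.53 and 5.76 in the remaining 11. The blood cell mean was 8.70, 7.60 and 6.53 in these 3 cells, and the fibroblast matrix mean was 3.89, 6.54 and 7.38, against a range of 5.71 to 9.52 in the others. The part of blood cell RNA in this difference was not tested.

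Levels were then compared with the blood cell mean over the 14 cells, as a description, since the cells share 1 normalization. Among the 44 genes detected in at least 7 cells, 2 (4.55%) had a Spearman rho of 0.5 or more, against 9.52% of all rows so detected, and 5 (11.4%) had one of -0.5 or less, against 5.91%. The first were Glrx (0.736) and Txndc16 (0.582), and Prdx6 lay just below at 0.499. The second were Prdx4 (-0.688), Txndc9 (-0.662), Gpx7 (-0.657), Glrx5 (-0.653) and Gstm2 (-0.604). Without cells 11 and 14 Glrx had 0.608 and Prdx4 -0.503, and without cells 6, 8, 11 and 14 they had 0.345 and -0.442. Over the same 10 cells Gpx7 and Gstm2 had -0.249 and -0.430, whereas Txndc16, Txndc9 and Glrx5 were still past 0.5 or -0.5, at 0.552, -0.697 and -0.855. Without cells 11 and 14 the genes at -0.5 or less numbered 8 in place of 5. Prdx6 had 0.224 over the 12 cells and -0.261 over the 10, so its rho of 0.499 rested on the cells with most blood cell transcripts. Over the 14 cells Prdx6 also had a rho of -0.570 with the number of rows above 0 per cell. Which of these relations goes with its level was not tested. Gpx8, at -0.477 over 14 cells, had -0.0667 over the 10 cells. Against the fibroblast matrix mean none of the 44 had a rho of 0.5 or more, where 4.49% of all rows did, and none had -0.5 or less, where 3.58% did. Without cells 11 and 14, 3 genes had a rho of -0.5 or less with the matrix mean, and without cells 6, 8, 11 and 14 there were 4. The shares of all rows over these smaller sets of cells were not computed. Fewer cells give a rho past 0.5 or -0.5 more readily, so these counts cannot be set against a background.

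**Figure D4:**
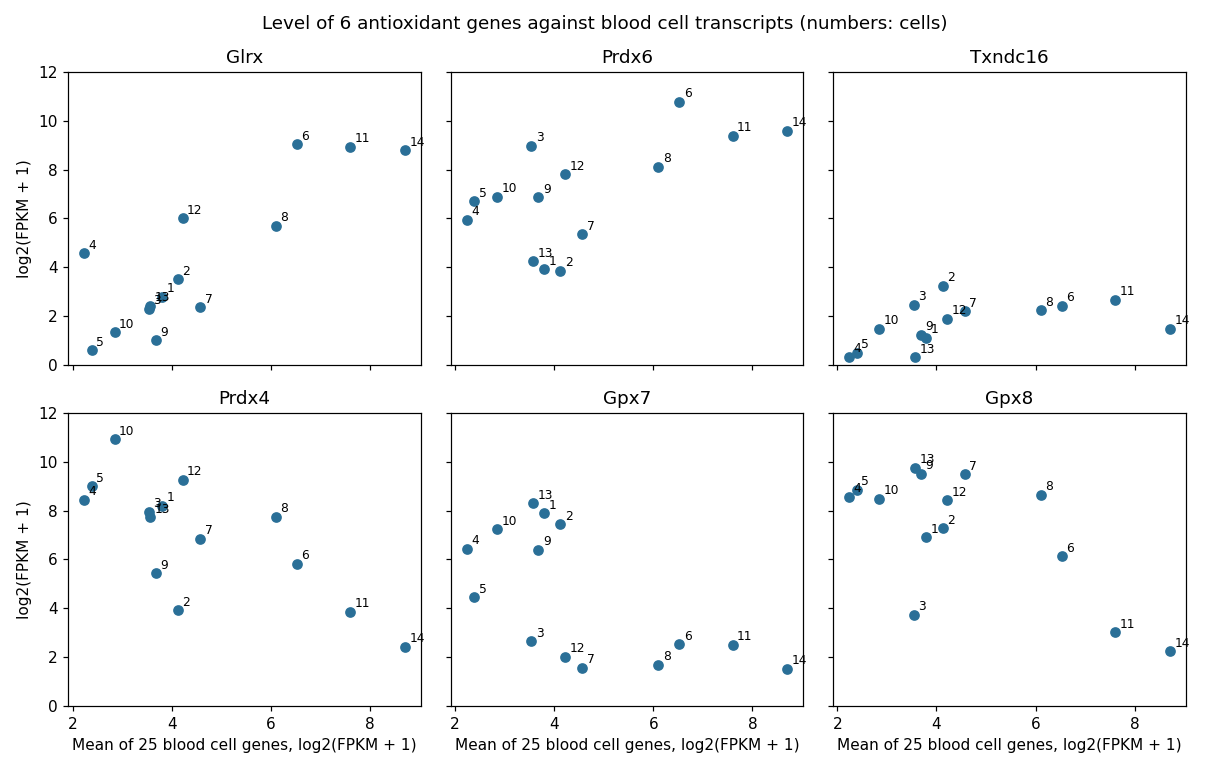
Levels of 6 genes (vertical axes) against the mean of 25 blood cell genes (horizontal axis) in the 14 cells, all as quantile-normalized log2(FPKM + 1); each point is 1 numbered cell. Glrx is highest in cells 6, 11 and 14, at the right, while Prdx4 and Gpx8 are lowest in cell 14.

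The mean of 16 immediate early and stress genes, which mark handling of cells during digestion among other things, ranged from 2.97 in cell 4 and 4.03 in cell 5 to 7.35 in cell 10. Of the 44 genes, 4 (9.09%) had a rho of 0.5 or more with it, against 3.52% of all rows so detected: Gpx3 (0.578), Gstm1 (0.534), Txndc15 (0.530) and Prdx2 (0.503). Txn1 had -0.701, the only gene at -0.5 or less (2.27%, against 2.79% of all rows). Cells 4 and 5, lowest in these genes, had Gpx3 and Gstm1 each among its 4 lowest values and Txn1 at its highest. With the mean of 11 osteoblast genes, 1 gene had a rho of 0.5 or more, Gpx3 with 0.530 (2.27%, against 6.68% of all rows so detected). Txn1 and Gpx1 had -0.697 and -0.688, the only genes at -0.5 or less (4.55%, against 4.27%). Cells 6, 10 and 13 had the highest osteoblast means, 5.90, 6.37 and 7.13, and Gpx1 was at 7.28, 9.36 and 8.67 in them, its 3 lowest values. The comparisons with the immediate early and osteoblast means were not among those planned. Neither was repeated without the cells at the ends, such as cells 4 and 5.

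Correlations between the genes lay near those between all rows. Over the 946 pairs of the 44 genes the median Spearman rho was 0.0418 (SD 0.303 over pairs), and over all pairs of the 4939 rows so detected it was 0.00660 (SD 0.301). The median SD over cells was 2.05 for the 56 genes and 1.75 for all rows, and for rows detected in at least 7 cells it was 2.09 for the 44 genes and 2.03 for all. A range of 8 or more log2 units over the cells was seen in 6 genes (10.7%), against 9.44% of all rows. Beside the paralogous pairs, the highest pairwise values were those of Prdx3 and Txndc5 (0.811) and of Prdx2 and Gpx8 (0.785), and the lowest was that of Mgst1 and Txndc5 (-0.771). They are the extremes of 946 pairs over 14 cells.

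Other genes of the pathways were taken from 6 lists. Of 72 genes fixed, 56 had a row, and 30 (53.6%) reached detection in at least 7 cells, close to the 51.7% of all rows. In every cell 14 (25%) were detected, against 15.8% of all rows. Among 9 regulators of Nrf2 and its partners, 5 were detected in at least 7 cells. Sqstm1, the autophagy receptor that binds Keap1, had the highest median at 9.44, followed by the related factor gene Nfe2l1 at 5.31, and Cul3, of the ligase that degrades Nrf2, had the widest range (0.59 to 9.46). Nfe2l2 was present in every cell, at a median of 4.74 (range 2.41 to 8.62), and Keap1 was detected in 3. These 2 genes and Slc7a11 are named after their values were seen.

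Of 11 enzymes that supply NADPH, 7 were detected in at least 7 cells. Over all rows 51.7% were, the share to set beside this and each list below. Taldo1, of the pentose phosphate pathway, had a median of 6.52 and Idh1, cytosolic isocitrate dehydrogenase, one of 5.15, while Tkt had the widest range, up to 7.82 in cell 6. Of 7 genes of cystine and glutathione transport and breakdown, 3 were so detected. Slc3a2, the heavy chain of the cystine transporter, had a median of 6.15 (range 5.32 to 8.001), and the glutamine transporter gene Slc1a5 one of 3.29. Slc7a11, the light chain that carries cystine, had a median of 2.56, with 8.82 in cell 14 and 7.33 in cell 11. Both cells had the highest blood cell means, and a source of Slc7a11 in blood cells was not tested.

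Of 11 other selenoproteins and genes of selenium use, 8 were detected in at least 7 cells, where 51.7% of all rows were. Selenok and Selenom, both of the endoplasmic reticulum, had medians of 8.94 and 8.04, and Msrb1, a methionine sulfoxide reductase, ranged from 0.00 to 9.20 in cell 11. Among 7 methionine sulfoxide reductases and stress proteins, 2 were so detected: Park7, an oxidation sensor, with a median of 6.57, and Sesn3 with 0.90. Msrb2 had the widest range of that list, up to 6.62 in cell 12. Of 11 genes of iron handling 5 were so detected. The iron chaperone gene Pcbp1 had a median of 6.76 and transferrin, Trf, one of 5.87, and Ncoa4, the receptor for ferritin breakdown, was detected in 5 cells and peaked in cell 6 at 9.67.

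Promoter windows were searched for the core of the antioxidant response element, TGACNNNGC on either strand, in the RefSeq sequences of GRCm38.p6 from 250 bases before to 50 after the start site. Of the 48 antioxidant genes with a window, 9 (18.8%) held a match in at least 1 window. Among all genes of the expression table with a window, 17.0% did, and among all genes of RefSeq 13.99%. The share was thus close to the background, and a match is a description of letters, not of binding. The 8 matches that lie before the start site are shown on the gene's strand with up to 10 bases on either side and the match in capitals, since they mark the few genes of the set that hold the core there. That of Srxn1 lies past the start.
Prdx1 (chr4:116685456-116685484, plus strand): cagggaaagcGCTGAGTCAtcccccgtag
Gclm (chr3:122245413-122245441, plus strand): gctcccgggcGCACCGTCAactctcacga
Txnrd1 (chr10:82859104-82859132, plus strand): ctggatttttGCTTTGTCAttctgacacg
Mgst1 (chr6:138140461-138140489, plus strand): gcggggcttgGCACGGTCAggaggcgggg
Sod1 (chr16:90220696-90220724, plus strand): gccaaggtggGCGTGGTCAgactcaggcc
Gstm5 (chr3:107895802-107895830, plus strand): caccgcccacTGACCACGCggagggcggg
Txndc5 (chr13:38528034-38528062, minus strand): gcctcgccgcTGACGTGGCgctagccgcc
Txndc11 (chr16:11134755-11134782, minus strand): gtggaaggcTGACGCGGCcgcgagtgct
In Prdx1, Gclm, Txnrd1, Mgst1 and Sod1 the motif reads on the opposite strand, and in Gstm5, Txndc5 and Txndc11 on the gene's own. The match began 133 bases before the start site in Prdx1, 134 in Gclm, 92 in Txnrd1, 56 in Mgst1, 56 in Sod1, 42 in Gstm5, 138 in Txndc5 and 241 in Txndc11. The genes with a match covered the range of levels. Prdx1 was detected in every cell at a median of 9.48, while Gclm and Txnrd1 had medians of 1.48 and 3.02 and Srxn1 one of 0.19. The window of Nqo1 held no match, which says only that these letters are not in it.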

How the data were processed

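Per the labels' protocols, libraries of 14 single cells were made with the SMART-Seq v4 3' and Nextera XT kits. The submitters' processing notes name TopHat2, Cufflinks and GRCm38 without versions. The authors deposited 1 table of log2 values whose name says FPKM. All 14 columns share the same highest value, 14.58, and the same quartiles, so they were taken as log2(FPKM + 1) after quantile normalization, a reading that no label or header records. Division by transcript length understates long genes, since 3' reads do not grow with length. The depth is unknown, so no detection limit is given. All 14 columns were matched to cells by title. Of 9558 rows, 9544 matched GENCODE M21 by Ensembl ID, and all 56 antioxidant genes did.

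Cells of 1 sample are not replicates, so no test, p-value or standard error is given; SDs and correlations describe these cells. Genes were assigned to roles, compartments and pathway lists by hand. Every antioxidant gene could be named, and of each pathway list the 2 genes with the highest medians and the 1 with the widest range, and, for the 3 antioxidant genes that vary most by SD and are detected in at least 7 cells, the 3 rows with the highest Spearman rho, of which 1 is not reported here. The genes and lists were chosen with earlier results of these data known. Older symbols were matched by Ensembl ID. Detection counts and correlations were tested on simulated data. Alternatives changed the detection threshold, the pseudocount, the length scaling, the filter, the correlation and the cells used. Python 3.11.15, NumPy 2.4.6, pandas 2.3.3 and SciPy 1.17.1 were used.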

Additional observations from a re-analysis of the deposited data

How the results depend on the processing

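No paired analysis was possible because the cells form 1 group. The difference between Ftl1 and Fth1 was planned and not run, since Fth1 was not analysed here. Of 74 alternatives to the 11 summary values, 59 left the value within its spread or a count within 1.5 times. Of the rest, 12 moved it further and 3 changed its sign. The spread was that over cells, over pairs or, for the median SD, over genes. Values in percentile points or with the length division undone were compared as multiples of their own SD. The settings by set of rows at 0 were added after seeing the data. The sign changes all concern Gpx3 minus Gpx1, 0.04 in the median, which was -1.28 as a mean, -0.0471 as a percentile rank and -0.40 in the 9 cells of the larger set. The SD of this difference, 3.90, was far wider than the difference, so its shifts of the same sign counted as within the spread. The SD also exceeded the value for Sod1 minus Sod2 (2.24, SD 2.77) and for the median correlation between genes (0.0418, SD 0.303). Limiting rows to protein-coding genes gave the same counts, 44, 29 and 30. These settings were therefore weak checks. A threshold at an FPKM of 5 left 14 antioxidant genes detected in every cell, and one of 10 left 10, against 29. Pathway genes in at least 7 cells numbered 52 above 0 and 17 at an FPKM of 10, against 30. The excess of the antioxidant mean over all rows was 1.51 with a pseudocount of 10, 3.08 with 0.1, 1.93 with the length division undone and 1.98 among rows detected in at least 7 cells, against 2.40. The median SD was 1.23 with a pseudocount of 10. Genes at a rho of 0.5 or more with the blood cell mean numbered 4 in the 9 cells, against 2, those at -0.5 or less 7 by Pearson and 8 both in the 9 cells and without cells 11 and 14, against 5, and those at 0.5 or more with the matrix mean 2 by Pearson and 1 in the 9 cells, against 0. At a rho of -0.5 or less with the matrix mean there were 3 genes by Pearson, 3 without cells 11 and 14, 4 without cells 6, 8, 11 and 14 and 5 in the 9 cells, against 0. The cause of these shifts was not tested. The share of all rows was not computed under these settings, and fewer cells give a large rho more readily. Without cells 11 and 14, the counts of detected genes stayed within 1.5 times. The unknown depth limits every value near 0.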
